A study of Bos taurus with 8 samples.

Results

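Genes that mark the neural and ectodermal lineages were followed in bovine embryonic stem cells (bESCs) grown with and without feeder cells. The genes were 10 named neuroectoderm and neural crest markers, PAX6, SOX1, SOX3, SOX11, NES, PAX3, SOX9, SOX10, ZIC1 and LHX2, taken by name from a count table of 32640 genes. Of these, 9 were listed with counts, SOX3 was not analysed here, and 7 had enough counts to be among the 15744 genes tested. The RNA came from 4 independent bESC lines (A, C, D and E), which the records give as XX and as derived from early or full blastocysts. Each line was sequenced on MEF (irradiated mouse embryonic fibroblasts, a feeder layer) at passage 15 to 17 and again in feeder-free conditions on vitronectin, an adhesion protein, at passage 20 to 22, both in 5% O2 and in the same recorded batch, 1. All cultures were kept in NBFR medium with FGF2 and the WNT inhibitor IWR-1. The titles give 1 medium name, NBFRA, for all 8 libraries, whereas the methods add Activin A for feeder-free culture, so the sources differ on Activin A for cells on MEF. Feeder layer, passage and possibly Activin A changed together and cannot be told apart, and each line stands for 1 replicate.

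Total counts on genes ranged from 44268717 to 54296425 per library on MEF (median 46521806) and from 49671478 to 102351560 in feeder-free conditions (median 51194223). Line D without feeders had the largest total. Mean totals were compared by exact permutation, two-sided (p = 0.171, n = 4 each, smallest possible p 0.0286). Values below are CPM, the counts on a gene relative to the library total after TMM scaling. CPM is not corrected for transcript length, so it compares 1 gene between libraries and not different genes with each other. In bulk RNA, fewer cells of a type and less RNA per cell cannot be told apart. Reads of feeder cells that align to the bovine genome could add to levels on MEF. Their part in the genes lower without feeders was not tested.

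The neural lineage begins as neuroectoderm, a sheet of embryonic ectoderm in which BMP signalling is held down by secreted antagonists and SOX factors of the SOX1 and SOX3 kind are switched on. PAX6, LHX2 and ZIC1 are transcription factors that pattern this sheet, SOX11 acts in committed progenitors, and NES encodes nestin, an intermediate filament of progenitors. PAX3, SOX9 and SOX10 act at the border of the neural plate and in the neural crest, the migratory cells that arise there. Several of these genes are not exclusive to neural cells: SOX11 and ZIC genes are also read in pluripotent epiblast-like cells, and SOX9 in endoderm and cartilage.

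The cells carried the markers of their label. POU5F1, which encodes the pluripotency factor OCT4, stood at 2048 ± 245 CPM on MEF and 1850 ± 84.6 CPM in feeder-free conditions (SD, n = 4 each), and LIN28A, an RNA-binding protein of pluripotent cells, at 704 ± 62.2 and 575 ± 43.5 CPM. Of the 9 pluripotency markers listed with counts, 0 were called in edgeR's quasi-likelihood test without pairing, with 6 at an unadjusted p under 0.05 (1 higher, 5 lower in feeder-free conditions). Of all 15744 genes tested, 21.6% had an unadjusted p under 0.05, 10.2% higher and 11.4% lower, and each such count of genes is to be read beside that share. DNMT3B, a DNA methyltransferase of pluripotent cells, was at 1002 ± 531 and 1048 ± 319 CPM and was not called. In the paired test 0 were called, by the likelihood ratio test and limma-voom 0, and by DESeq2 1, higher. Against this background the most specific neural identity genes were close to absent: SOX1 had 57 counts summed over the 4 libraries on MEF and 57 over the feeder-free ones, and PAX6 had 16 and 14.

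**Figure D1:**
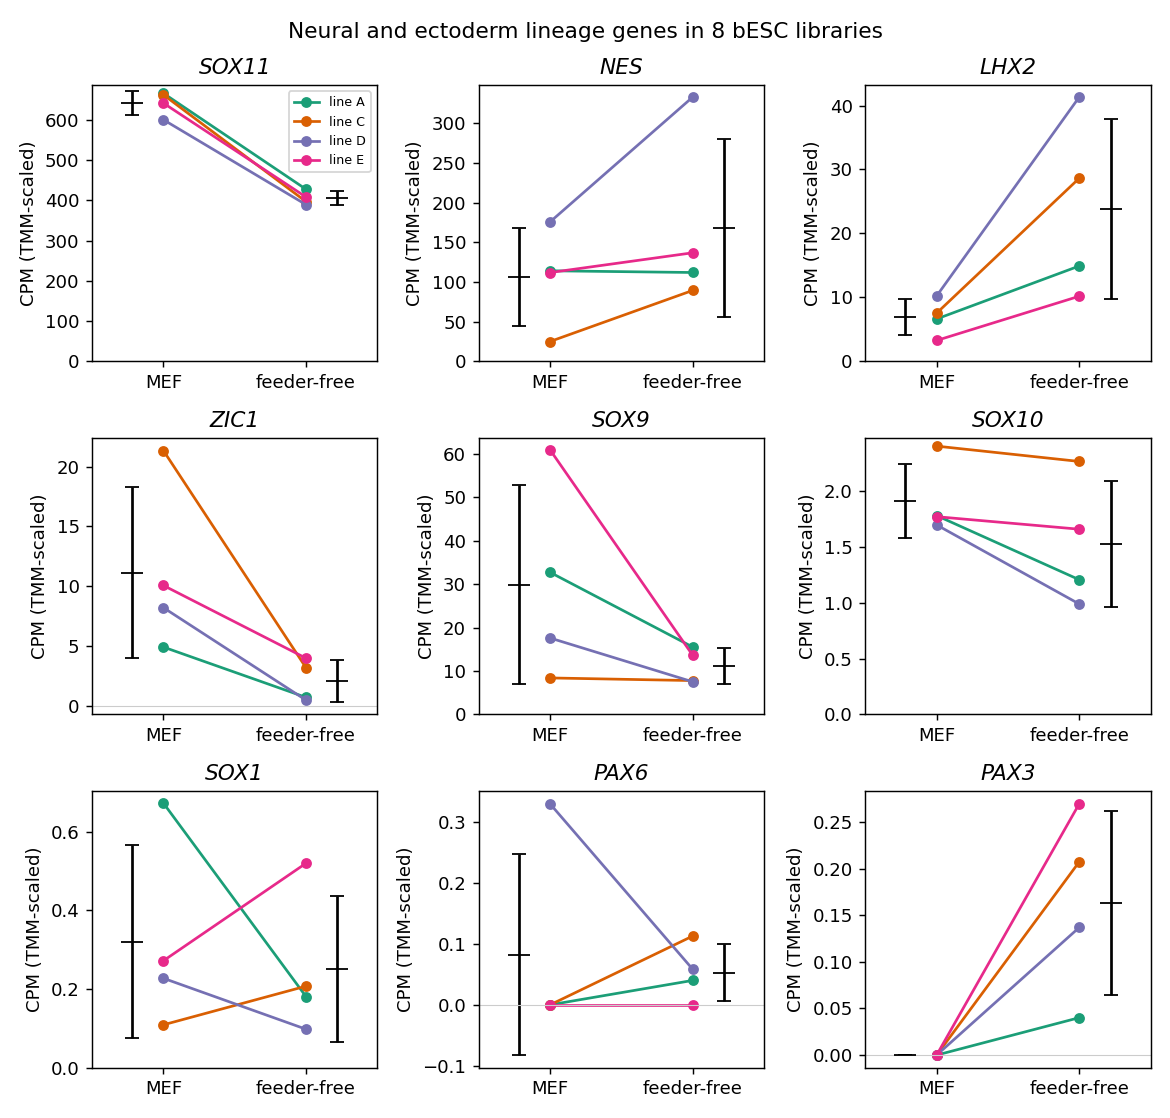
TMM-scaled CPM of the 9 listed marker genes in each library, with 1 panel per gene, 1 colour per line, lines joining the MEF and feeder-free libraries of a line, and black bars for the mean ± SD (n = 4). SOX11 separates the conditions with little spread (601 to 666 CPM on MEF, 389 to 428 in feeder-free conditions), LHX2 goes up and ZIC1 down in all 4 lines, and the axes of SOX1, PAX6 and PAX3 end below 1 CPM.

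A gene was called differentially expressed in edgeR's quasi-likelihood test when its fold change reached 1.5 and its p-value, adjusted over all tested genes after Benjamini and Hochberg, was under 0.05. In the test on condition alone, 1 of the 7 tested markers was called, SOX11, lower in feeder-free conditions. Over all genes tested the same rule called 1.73% (0.724% higher and 1.00% lower). Because the same lines were grown in both conditions, a test with line as a block was made as well. It called 4 of 7 markers, LHX2 higher and ZIC1, SOX11 and SOX9 lower, where it called 10% of all genes (5.52% higher and 4.53% lower). The median log2 fold change of the 7 was -0.35, against 0.01 over all genes tested. SOX11 and ZIC1 were the 2 of 7 whose libraries did not overlap between conditions, a pattern shown by 14.6% of all genes tested.

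Among the factors of the neural plate, LHX2, a LIM homeobox factor of the forebrain and eye field (chr11:95125097-95144837 of ARS-UCD2.0), had the largest increase of the 7 tested markers. Its level on MEF was 6.63 CPM in line A, 7.54 in C, 10.2 in D and 3.26 in E. In feeder-free conditions it was 14.9 CPM in line A, 28.6 in C, 41.3 in D and 10.2 in E. Every line was higher in feeder-free conditions, but the groups touched, since line D on MEF stood marginally above line E without feeders. The mean went from 6.91 ± 2.87 to 23.8 ± 14.1 CPM (SD, n = 4 each), a ratio of 3.44. The log2 ratio was 1.17 in line A, 1.92 in C, 2.01 in D and 1.63 in E. LHX2 missed the threshold in edgeR's unpaired test (log2 fold change 1.78, SE 0.47, adjusted p = 0.0747) and passed it with line as a block (1.69, SE 0.17, adjusted p = 0.000834). It passed that paired test with any 1 of the 4 lines left out. The span of LHX2 overlaps LOC132346633, which had 17 counts in all on MEF and 51 in feeder-free conditions, against 1330 and 7020 for LHX2. Lines C and D without feeders, which had the most LHX2, also had the highest sums of the fibroblast and trophoblast lists, given further on. With line as a block, 3 fibroblast genes were called higher and 2 lower, and 4 trophoblast genes higher and 1 lower. The defining trophoblast genes CDX2, IFNT2 and PAG2 had no counts. Neither the presence of such cells nor their part in the LHX2 levels was tested.

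ZIC1, a zinc finger factor of the dorsal neural plate and plate border (chr1:120896651-120901276), moved the other way and by more. On MEF it stood at 4.90 CPM in line A, 21.4 in C, 8.20 in D and 10.1 in E. In feeder-free conditions it stood at 0.682 CPM in line A, 3.16 in C, 0.450 in D and 3.96 in E, so all 4 feeder-free libraries were below all 4 on MEF. The mean was 11.1 ± 7.14 CPM on MEF and 2.07 ± 1.76 CPM in feeder-free conditions (SD, n = 4 each), 5.39 times higher on MEF. The drop was deepest in line D, at a log2 ratio of -4.08, followed by -2.78 in A and -2.74 in C, and shallowest in E at -1.34. In edgeR's unpaired test ZIC1 was not called (log2 fold change -2.44, SE 0.73, adjusted p = 0.101), and with line as a block it was (-2.74, SE 0.39, adjusted p = 0.00319), also with any 1 line left out. Its span overlaps that of its neighbour ZIC4, another family member, and since no source used here says whether counting used strand, reads of the pair cannot be told apart. ZIC4 had the same direction in 4 of 4 lines (2.68 ± 1.53 CPM on MEF, 1.12 ± 0.762 in feeder-free conditions) and was called lower with line as a block (log2 fold change -1.40, edgeR adjusted p = 0.0430).

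SOX1 and PAX6 had few counts and showed no clear difference between conditions. SOX1, an early neuroectoderm factor of the SOX2 subfamily (chr12:86018876-86022110), had 28, 6, 11 and 12 counts in lines A, C, D and E on MEF and 9, 11, 10 and 27 in feeder-free conditions. Lines A and D were lower and lines C and E higher without feeders. The fitted log2 fold change was -0.35 with a 95% interval from -1.93 to 1.22 (edgeR quasi-likelihood test, adjusted p = 0.828), and without line A on MEF it turned to 0.30. PAX6, the paired-box factor of forebrain and eye (chr15:62559094-62588024), had 16 counts on MEF, all of them in line D. In feeder-free conditions it had 2, 6 and 6 counts in lines A, C and D and none in E. It did not pass the filter on low counts, and by exact permutation of its CPM the two-sided p was 1 (n = 4 each).

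Of the progenitor genes, SOX11 varied least between lines. SOX11 is a SOX factor of the group that also holds SOX4 and SOX12 (chr11:90946223-90955530). It stood at 666 CPM in line A, 662 in C, 601 in D and 642 in E on MEF. Without feeders it stood at 428 CPM in line A, 397 in C, 389 in D and 408 in E. The lowest library on MEF thus lay well above the highest feeder-free one. The mean fell from 643 ± 30.1 to 406 ± 16.7 CPM (SD, n = 4 each), a level 1.58 times higher on MEF, with a log2 fold change of -0.66 (SE 0.11, 95% interval -0.91 to -0.42, edgeR quasi-likelihood adjusted p = 0.0331). The 4 lines agreed closely, with log2 ratios between -0.74 and -0.62. The edgeR adjusted p with line as a block was 0.00337. The unpaired call rested on all 8 libraries except line A without feeders: leaving out any of the other 7 gave edgeR adjusted p-values of 0.0703 to 0.116 at log2 fold changes of -0.70 to -0.64. In the paired test it was called with any 1 line left out (edgeR adjusted p = 0.00595 to 0.0331).

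NES (chr3:14159893-14168905) followed the line more than the condition. On MEF it stood at 114 CPM in line A, 25.0 in C, 176 in D and 112 in E, and in feeder-free conditions at 112, 89.3, 333 and 137 CPM. Line D was the highest and line C the lowest in both conditions. The means, 107 ± 62.0 and 168 ± 112 CPM (SD, n = 4 each), overlapped widely. Line A was nearly equal in both conditions (log2 ratio -0.03), while line C was 3.58 times higher without feeders. NES was not called in either test (log2 fold change 0.65, 95% interval -0.61 to 1.92, edgeR adjusted p = 0.554, and 0.75 with adjusted p = 0.0737 with line as a block). In the paired test it was called only with line A left out (log2 fold change 1.01, edgeR adjusted p = 0.0344).

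Of the neural crest genes, SOX9 (chr19:58918935-58923070) was lower in feeder-free conditions in all 4 lines, by very different amounts. It stood at 32.7 CPM in line A, 8.41 in C, 17.6 in D and 60.9 in E on MEF, and at 15.5, 7.80, 7.52 and 13.6 CPM in feeder-free conditions. The libraries on MEF spanned a 7.24-fold range and the feeder-free ones a 2.06-fold range, and the groups overlapped. Line E was 4.46 times higher on MEF, whereas line C was 1.08 times higher. SOX9 was called with line as a block (log2 fold change -1.15, SE 0.27, edgeR adjusted p = 0.0213) but not in the unpaired test (-1.43, SE 0.54, adjusted p = 0.164). The paired call was lost without line A, D or E, at edgeR adjusted p-values of 0.0511, 0.0601 and 0.0563.

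SOX10, the factor of migrating crest and glia (chr5:109757715-109768623), was read at a few CPM in every library. It stood at 1.78, 2.40, 1.69 and 1.77 CPM in lines A, C, D and E on MEF and at 1.20, 2.26, 0.987 and 1.65 CPM in feeder-free conditions. Line C was the highest in both conditions, and lines C and E were nearly equal between conditions. The log2 fold change was -0.32 with a 95% interval from -1.07 to 0.42 (edgeR adjusted p = 0.630, and 0.421 with line as a block). Its neighbour POLR2F, an RNA polymerase subunit gene 3.51 kb away, stood at 42.3 ± 3.48 CPM on MEF and 58.7 ± 8.17 CPM in feeder-free conditions (edgeR unpaired adjusted p = 0.0801). With line as a block POLR2F had an edgeR adjusted p of 0.0269 but stayed under the fold threshold (log2 fold change 0.47), and it was higher in 4 of 4 lines.

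PAX3, a paired-box factor of the plate border and of somites (chr2:110369552-110471351), was the only marker listed at 0 in every library of a condition. It had 0 of 191608754 counts on MEF, and in feeder-free conditions 2 counts in line A, 11 in C, 14 in D and 14 in E, or 41 of 254411484. A count of 0 over the group allows up to 3 counts, or 0.0157 CPM, and the pooled feeder-free level was 10.3 times that floor. The CPM of the libraries did not overlap (exact permutation, two-sided p = 0.0286, n = 4 each, which is the smallest p this design can give). PAX3 did not pass the filter on low counts, and without that filter its edgeR adjusted p was 0.0853. The feeder-free mean was 0.163 ± 0.0984 CPM, which is a trace level. The methods describe taking the bovine-aligned reads of a pure MEF sample out of the counts of cells on MEF, and the part of that step in the 0 counts was not tested. The floor covers counting error on MEF only, and neither the counting error of the 41 feeder-free counts nor differences between lines.

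**Figure D2:**
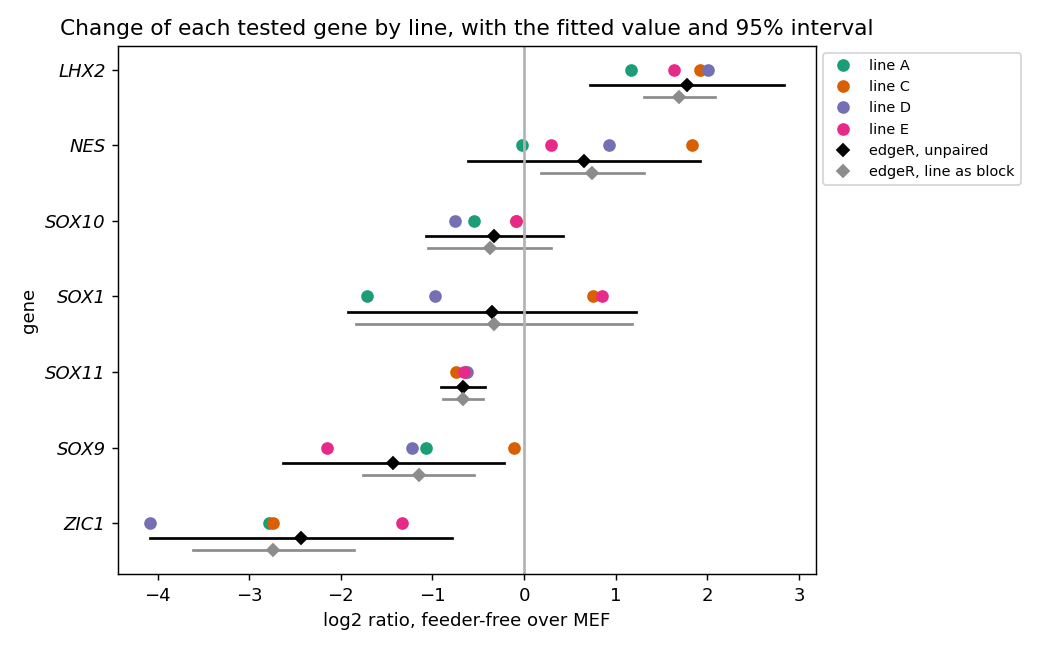
Log2 ratio of feeder-free over MEF for the 7 tested markers. Coloured points are the 4 lines, black diamonds and bars the edgeR estimate and 95% interval without pairing, and grey ones those with line as a block. The 4 lines of SOX11 lie on top of each other, all 4 lines of LHX2 are above 0 and of ZIC1 and SOX9 below it, and SOX1 is split.

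The split of each marker's variation between condition and line shows how unlike these genes were. Of the sum of squares of log2 CPM over the 8 libraries, condition took 97.3% for SOX11, 61.7% for ZIC1 and 59.1% for LHX2. It took 32.7% for SOX9, 22.5% for SOX10, 14.7% for NES and 2.95% for SOX1. Line took a larger share than condition for NES (72.2%), SOX10 (63.4%), SOX9 (54.0%), SOX1 (48.5%) and PAX6 (57.4%, beside 1.62% for condition). In PAX3, which was at 0 in every library on MEF and at trace levels without feeders, condition took 82.0% and line 8.98%. Over all genes tested the medians were 18.8% for condition and 49.5% for line, beside 2.28% for line in SOX11. These shares are descriptive, and in SOX1, a gene with few counts, the remainder took 48.5%.

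**Figure D3:**
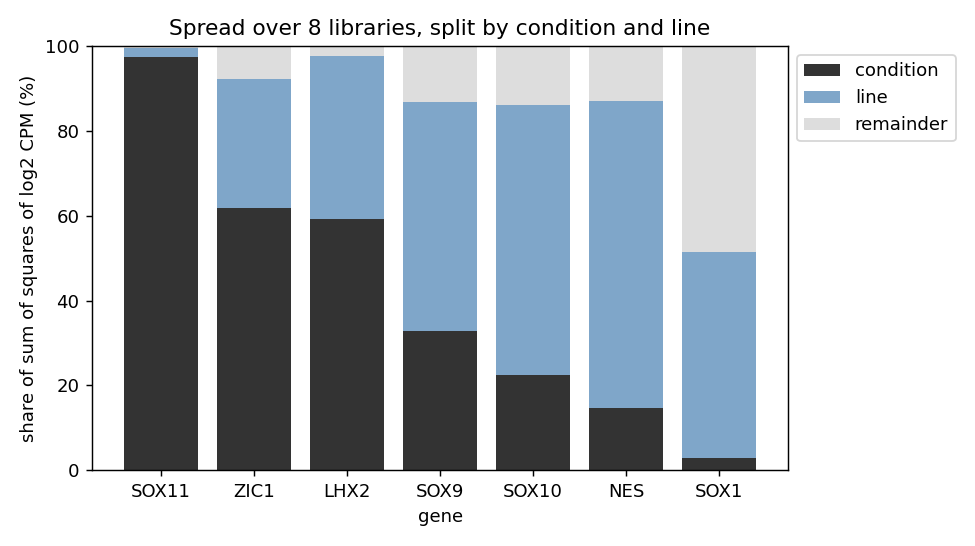
Share of the sum of squares of log2 CPM over 8 libraries taken by culture condition (dark), by line (blue) and by neither (light grey), for the 7 tested markers. SOX11 is nearly all condition (97.3%), NES and SOX10 are mostly line (72.2% and 63.4%), and SOX1 is split between line and remainder.

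The genes whose log2 CPM ran most like each marker over the 8 libraries were listed by Pearson correlation, as a description of libraries that share condition, line and depth. LHX2 ran closest to DSC3, a desmosomal cadherin of epidermis (r = 0.984), and LOC112448762 (r = 0.982). ZIC1 ran closest to ZNF629 (r = 0.978) and the overlapping ZIC4 (r = 0.975). SOX11 ran closest to ADNP, a chromatin regulator, and FOXN3, a forkhead factor (both r = 0.996). For NES these were HIP1R (r = 0.956) and IRAK3 (r = 0.954), and for SOX9 GOLPH3L (r = 0.973) and LOC112448520 (r = 0.972). For SOX10 they were AASDH (r = 0.993) and MYO18B (r = 0.959), and for SOX1 TPPP3 (r = 0.960) and TMEM249 (r = 0.945).

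The wider neural and ectodermal programme was described with 11 lists, chosen with earlier results of these data known. Shares called in them, and in the cell-type lists further on, are therefore descriptive. The 11 lists held 234 other genes, of which 231 were listed with counts and 168 were tested. Without pairing, 3 were called higher (HOPX, NEFH and FST) and 6 lower (SOX4, MSI2, NCAM1, DCX, RBPJ and FGF8), 5.36% of the 168 beside 1.73% of all genes, and 57 of the 168 (33.9%) had an unadjusted p under 0.05 beside 21.6% of all genes. With line as a block 12 were called higher and 24 lower, 21.4% beside 10%, and 31 of these 36 moved the same way in all 4 lines. The 9 genes called without pairing were among the 36, and their unpaired calls were lost in most sets of 7 libraries, as that of SOX11 was. Of the 36, 21 were called in the paired test with any 1 line left out. Leaving out line A lost 6 (HESX1, IRX1, IRX2, IRX3, ZIC4 and BOC) and line C 11 (HESX1, IRX2, IRX3, SOX21, ZIC4, GPM6A, KRT17, PERP, KLF4, SFN and HHIP), at edgeR adjusted p-values of 0.0818 to 0.104 and 0.0516 to 0.167. Leaving out line D lost 13 (HESX1, IRX2, SOX21, ZIC4, HOPX, GPM6A, SYT1, KRT17, PERP, KLF4, SFN, HHIP and BOC) and line E 9 (HESX1, IRX1, IRX3, GPM6A, SYT1, KRT17, SFN, HHIP and BOC), at 0.0506 to 0.199 and 0.0449 to 0.117, the lowest of these being under the fold threshold. The median log2 fold change over the 168 was -0.10. Listed at 0 in all 8 libraries were OLIG1, PAX4, EDNRB, CDH19, NEUROG1, NEUROD1, NEUROD2 and KRT5, most of them factors of committed neuronal, glial or crest cells.

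Of 21 tested factors of the neural plate and brain, 16 had a log2 fold change below 0, and the list's median was -0.63. With line as a block 8 were called lower (OTX2, SIX3, IRX1, IRX2, IRX3, POU3F1, SP8 and NR2F2) and 1 higher (HESX1), 42.9% of the list beside 10% of all genes. SIX3, a forebrain and eye-field factor, was at 99.1, 62.0, 36.4 and 53.1 CPM in lines A, C, D and E on MEF and at 31.4, 18.3, 5.92 and 31.4 CPM in feeder-free conditions. Its groups did not overlap (log2 fold change -1.69, SE 0.25, edgeR adjusted p = 0.00330 in the paired test). POU3F1, a POU factor of epiblast and neural plate, went from 93.9 ± 35.5 to 36.2 ± 15.0 CPM (-1.38, SE 0.13, edgeR paired adjusted p = 0.000678). OTX2, a head-organising factor of epiblast and forebrain, went from 380 ± 63.0 to 245 ± 65.6 CPM (-0.66, SE 0.10, edgeR paired adjusted p = 0.00495). HESX1, a repressor of the anterior plate, owed its mean of 43.8 ± 24.7 CPM without feeders mainly to line A (80.8 CPM, against 29.7 to 33.7 in the other lines), beside 26.2 ± 4.62 CPM on MEF. IRX1 was read mainly in line A (16.8 and 5.74 CPM) and, at a lower level, in line E (2.22 and 0.346 CPM), with 2 counts in lines C and D together, and NR2F2 only at trace levels without feeders (0.0484 ± 0.0579 CPM). NR2F2 had 417 counts summed on MEF and 14 without feeders. It thus passed the filter on low counts through the libraries on MEF, so its call and its place in the 42.9% are not free of the filter. The part of feeder-cell reads in the NR2F2 level on MEF was not tested either. The span of IRX2 overlaps another locus. Without pairing, edgeR's quasi-likelihood test called 0 of the 21, with 6 (28.6%) at an unadjusted p under 0.05 beside 21.6% of all genes. DESeq2 called 4 and the likelihood ratio test 3, all lower, and limma-voom 0.

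Among other SOX genes, SOX4, the relative of SOX11, was called in both tests, and of the 9 tested 2 (22.2%) were called with line as a block beside 10% of all genes. At an unadjusted p under 0.05 in the unpaired test there were 3 (33.3%) beside 21.6%, and DESeq2, the likelihood ratio test and limma-voom each called 1. It stood at 66.3, 38.5, 51.7 and 81.0 CPM in lines A, C, D and E on MEF and at 22.1, 16.7, 16.7 and 15.9 CPM in feeder-free conditions, with no overlap (log2 fold change -1.73, SE 0.23, edgeR unpaired adjusted p = 0.0314). SOX12, the third gene of that group, was also lower in 4 of 4 lines (175 ± 20.3 to 130 ± 15.2 CPM) but under the fold threshold (-0.43, edgeR paired adjusted p = 0.0198). SOX2, which is shared by pluripotent and neural cells, was similar in kind (432 ± 33.5 to 339 ± 8.62 CPM, -0.35, edgeR paired adjusted p = 0.0436, under the fold threshold), and its span overlaps LOC100849009. SOX21 was called lower with line as a block (-1.02, edgeR adjusted p = 0.0318), while SOX13 stood at 76.7 ± 3.58 and 76.9 ± 16.1 CPM.

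In the PAX, ZIC and LHX families the genes with the highest CPM were not called. ZIC2, a ZIC factor of epiblast and neural plate, was at 543 ± 47.9 CPM on MEF and 416 ± 40.2 CPM in feeder-free conditions, without overlap between groups but under the fold threshold (log2 fold change -0.38, edgeR paired adjusted p = 0.0375). ZIC5 stood at 150 ± 12.8 and 148 ± 6.91 CPM, and PAX8, whose span overlaps another locus, at 38.9 ± 11.8 and 31.3 ± 4.87 CPM. Of 11 tested, ZIC4 was the 1 gene called with line as a block (9.09% beside 10% of all genes). The unpaired quasi-likelihood test called 0, with 2 (18.2%) at an unadjusted p under 0.05 beside 21.6% of all genes, and DESeq2, the likelihood ratio test and limma-voom called 0. The ZIC genes of this family thus differed in size of change: ZIC1 log2 -2.74, ZIC4 -1.40, ZIC2 -0.38 and ZIC5 -0.01 in the paired fit, a difference between genes that was not tested.

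**Figure D4:**
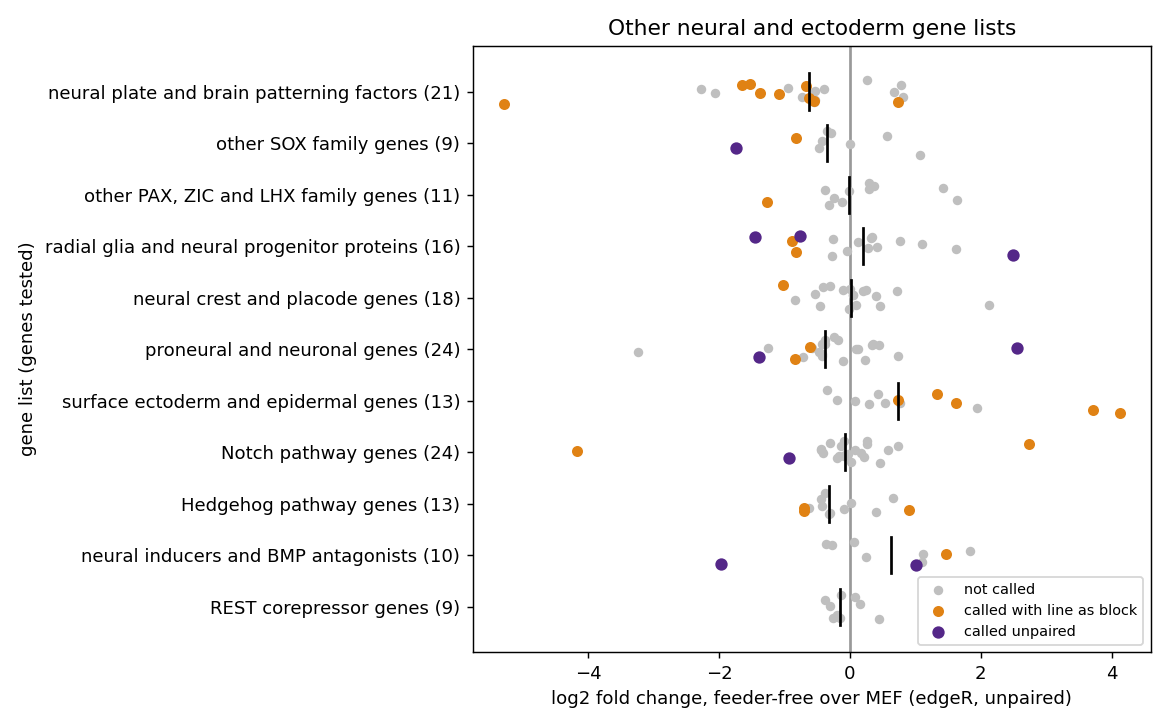
Log2 fold change (edgeR, unpaired) of the tested genes of 11 neural and ectodermal lists, 1 point per gene, grey where not called, orange where called with line as a block and purple where also called without pairing, with a bar at each list's median. Neural plate factors lie mostly left of 0 (median -0.63) and surface ectoderm genes mostly right of it (median 0.74).

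Genes of neural progenitors and neurons were called in both directions. Of 16 progenitor genes tested, MSI2, NCAM1, GPM6A and NOVA1 were called lower and HOPX higher with line as a block, 31.2% beside 10% of all genes. MSI2, an RNA-binding protein of progenitors, fell from 148 ± 5.37 to 87.2 ± 9.95 CPM (log2 fold change -0.77, SE 0.11, edgeR unpaired adjusted p = 0.0331). NCAM1, a neural cell adhesion molecule, fell from 46.3 ± 17.1 to 17.0 ± 3.02 CPM (-1.45, SE 0.27, edgeR unpaired adjusted p = 0.0391). VIM, the intermediate filament that pairs with nestin, was not called (756 ± 204 and 826 ± 266 CPM). Nor were MSI1, a relative of MSI2 (201 ± 33.7 and 169 ± 9.14 CPM, its span overlapping another locus), and CKB, the brain creatine kinase (128 ± 39.8 and 162 ± 65.7 CPM). Of 24 proneural and neuronal genes, DCX, ELAVL3 and SYT1 were called lower and NEFH higher with the block, 16.7% beside the same 10%. At an unadjusted p under 0.05 in the unpaired test there were 5 progenitor genes (31.2%) and 9 neuronal genes (37.5%), beside 21.6% of all genes. DESeq2 and the likelihood ratio test each called 4 genes of each list, and limma-voom called 2 of each list. DCX, a microtubule protein of young neurons, was at 57.4, 43.2, 35.6 and 54.5 CPM in lines A, C, D and E on MEF and at 18.8, 24.7, 12.3 and 17.1 CPM in feeder-free conditions (-1.39, SE 0.23, edgeR unpaired adjusted p = 0.0331). NEFH, the heavy neurofilament subunit, rose from 1.01 ± 0.0756 to 5.95 ± 1.86 CPM (2.56, SE 0.31, edgeR unpaired adjusted p = 0.0233), and HOPX from 0.344 ± 0.108 to 1.95 ± 1.11 CPM (2.50, SE 0.47, adjusted p = 0.0403), both without overlap. Of the 3 neuronal genes with the highest CPM, STMN2 and TUBB3 were lower in 4 of 4 lines but under the fold threshold (432 ± 199 to 321 ± 152 and 218 ± 45.8 to 161 ± 31.5 CPM). The third, NEFM, the medium neurofilament subunit, was at 98.2 ± 26.8 CPM on MEF and 163 ± 61.2 CPM in feeder-free conditions, higher in 3 of 4 lines, and was not called (0.73, edgeR unpaired adjusted p = 0.176, paired 0.0584). The spans of DCX, MSI2, NCAM1, HOPX, STMN2 and SYT1 overlap other loci.

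Of 18 other neural crest and placode genes tested, 1 (5.56%, beside 10% of all genes) was called with line as a block, DACH1, a transcriptional cofactor (22.6 ± 4.51 to 11.2 ± 2.70 CPM, log2 fold change -1.03, SE 0.16, edgeR adjusted p = 0.00399), and the median was 0.02. Those with the highest CPM, SIX4, ETS1 and CDH6, were not called (73.0 ± 14.0, 41.2 ± 13.6 and 28.9 ± 11.3 CPM on MEF, 59.3 ± 6.43, 30.9 ± 19.6 and 26.9 ± 6.93 CPM in feeder-free conditions). The unpaired quasi-likelihood test called 0, with 2 (11.1%) at an unadjusted p under 0.05 beside 21.6% of all genes, DESeq2 called 1, the likelihood ratio test 2 and limma-voom 0.

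Surface ectoderm genes, which mark the non-neural branch of ectoderm, lay mostly on the other side. Of 13 tested, 11 had a log2 fold change above 0, and the median was 0.74. With line as a block 5 were called higher (KRT17, DSC3, PERP, KLF4 and SFN) and 0 lower, 38.5% beside 5.52% of all genes called higher, and of these only DSC3 was called with any 1 line left out. DSC3 had 52 counts summed over the libraries on MEF and 1628 without feeders. It thus passed the filter on low counts mainly through the condition where it was high, so its call and its place in that share are not free of the filter. The same limit applies to KRT17, with 56 counts on MEF and 1239 without feeders. PERP, a desmosome-associated membrane protein, was at 107, 73.8, 96.9 and 96.8 CPM in lines A, C, D and E on MEF and at 131, 132, 207 and 154 CPM in feeder-free conditions, without overlap (0.72, SE 0.14, edgeR paired adjusted p = 0.00943). SFN, an epithelial 14-3-3 protein, was at 3.75 CPM in line A on MEF and 3.67 without feeders, so its rise from 3.75 ± 1.74 to 11.4 ± 9.44 CPM came from lines C, D and E (1.39, SE 0.33, edgeR paired adjusted p = 0.0227). KRT17, a basal keratin, was likewise at 0.192 and 0.0401 CPM in line A but at 3.35 to 8.59 CPM in the other feeder-free lines. Its span overlaps KRT42, another keratin gene. KLF4, which the paper counts among markers of naive pluripotency, is not exclusive to surface ectoderm. It was higher in 4 of 4 lines without feeders (0.860 ± 0.131 to 2.17 ± 0.776 CPM, 1.29, SE 0.31, edgeR paired adjusted p = 0.0240). EPCAM, an epithelial adhesion molecule that pluripotent cells also carry, was higher in 4 of 4 lines but under the fold threshold (173 ± 28.7 to 250 ± 38.7 CPM, 0.53, edgeR paired adjusted p = 0.00910). ESRP1, an epithelial splicing regulator, was not called (44.4 ± 18.3 and 54.3 ± 20.1 CPM). The defining epidermal factor TP63 was at 0 except for 8 counts in line D without feeders, and KRT5 was at 0 throughout. Without pairing, the quasi-likelihood test called 0 of 13, with 7 (53.8%) at an unadjusted p under 0.05, all higher, beside 10.2% of all genes in that direction, while DESeq2 called 5, the likelihood ratio test 4 and limma-voom 0.

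Among the signalling pathways that act on neural fate, RBPJ, the DNA-binding partner of Notch, fell from 192 ± 18.2 to 101 ± 7.99 CPM without overlap (log2 fold change -0.94, SE 0.12, edgeR unpaired adjusted p = 0.0233). With line as a block the Notch ligand DLL1 was called lower (5.73 ± 6.02 to 0.323 ± 0.240 CPM, -3.55, edgeR adjusted p = 0.00411) and the Notch target HEYL higher (1.39 ± 0.585 to 9.22 ± 7.72 CPM, 2.46, adjusted p = 0.00151), whereas the target HES1 stood at 87.2 ± 6.92 and 82.0 ± 4.86 CPM. DLL1 on MEF was at 6.87, 1.94, 0.372 and 13.7 CPM in lines A, C, D and E. Its log2 fold change ran from -4.79 to -2.80 over the alternative settings. The receptor gene NOTCH3 was lower in 4 of 4 lines but under the fold threshold (132 ± 27.8 and 99.8 ± 17.2 CPM, -0.40, edgeR paired adjusted p = 0.0310). RBPJ, DLL1 and HEYL were the 3 called of 24 Notch genes tested, 12.5% beside 10% of all genes, and the span of RBPJ overlaps another locus. At an unadjusted p under 0.05 in the unpaired test there were 8 Notch genes (33.3%) beside 21.6% of all genes, DESeq2 and the likelihood ratio test each called 3, and limma-voom 1. Of 13 Hedgehog genes, GAS1 was called higher and HHIP and BOC lower with line as a block, 23.1% beside 10% of all genes. GAS1, a co-receptor, had 40.1 ± 3.97 CPM on MEF and 75.2 ± 23.4 CPM without feeders (0.86, SE 0.14, edgeR paired adjusted p = 0.00585), and the receptor gene PTCH1 was not called (173 ± 23.1 and 138 ± 20.9 CPM). GLI2, a transcription factor of the pathway, was at 192 ± 8.61 CPM on MEF and 143 ± 5.56 CPM without feeders, with no overlap but under the fold threshold (-0.43, edgeR paired adjusted p = 0.0229). SMO, the signal transducer, was not called (115 ± 36.9 and 152 ± 17.1 CPM). The spans of HHIP, BOC and PTCH1 overlap other loci. The unpaired quasi-likelihood test called 0 Hedgehog genes, with 7 (53.8%) at an unadjusted p under 0.05 beside 21.6% of all genes, DESeq2 2, the likelihood ratio test 1 and limma-voom 0.

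Of 10 neural inducers and BMP antagonists tested, FST and CHRD were called higher and FGF8 lower with line as a block, 30% beside 10% of all genes. At an unadjusted p under 0.05 in the unpaired test there were 5 (50%) beside 21.6%, DESeq2 and the likelihood ratio test each called 3, and limma-voom 1. FST encodes follistatin, which binds Activin and BMPs. It stood at 37.4, 37.6, 27.6 and 20.7 CPM in lines A, C, D and E on MEF and at 63.1, 65.9, 66.8 and 52.9 CPM in feeder-free conditions. Every feeder-free library exceeded every one on MEF (log2 fold change 1.01, SE 0.20, edgeR unpaired adjusted p = 0.0411). CHRD, the BMP antagonist chordin, rose from 7.36 ± 2.47 to 20.4 ± 9.67 CPM in the paired test (1.40, SE 0.16, edgeR adjusted p = 0.00139). FGF8, a growth factor of brain signalling centres, fell from 5.51 ± 2.91 to 1.41 ± 0.435 CPM (-1.96, SE 0.40, edgeR unpaired adjusted p = 0.0466). The genes with the highest CPM beside FST, FSTL1 and TWSG1, were not called, and the span of TWSG1 overlaps another locus. Of 9 tested corepressor genes that work with REST, the repressor of neuronal genes, 0 were called by edgeR with or without the block or by the other tools, with 3 (33.3%) at an unadjusted p under 0.05 beside 21.6% of all genes, and EHMT2, HDAC2 and KDM1A stood at 592 ± 35.4, 586 ± 130 and 384 ± 38.8 CPM on MEF.

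**Figure D5:**
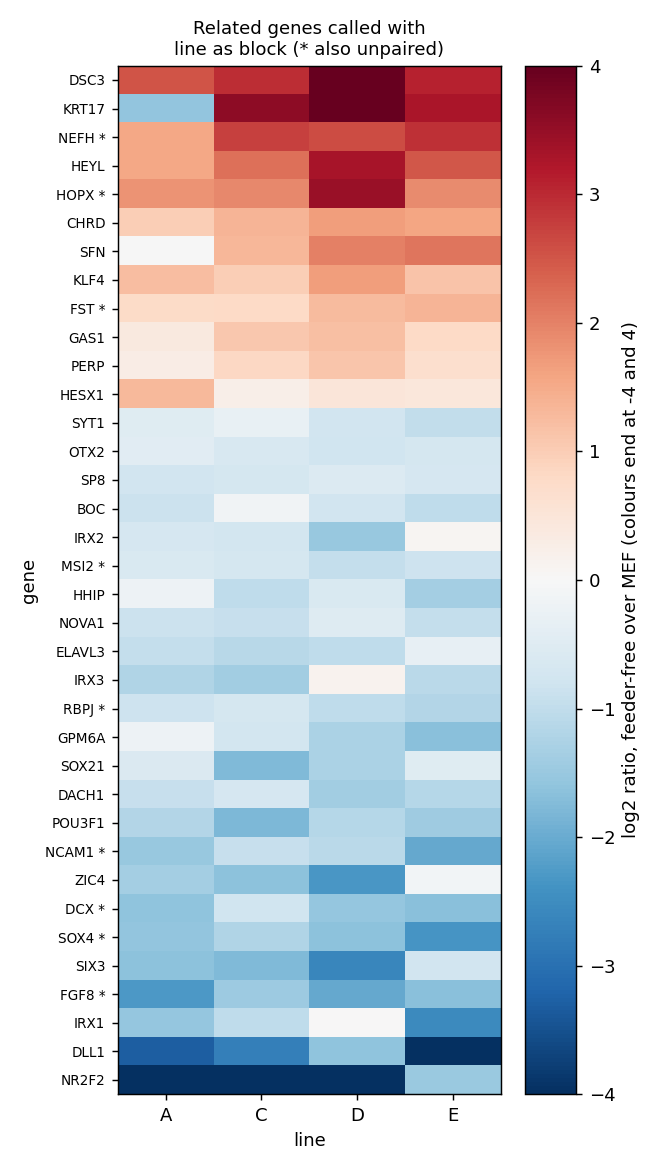
Log2 ratio of feeder-free over MEF in each line (columns) for the 36 genes of the wider lists called with line as a block (rows, asterisk where also called without pairing), red higher and blue lower without feeders, with colours ending at -4 and 4. Most rows keep 1 colour across lines, with the exceptions in line A (KRT17 and SFN), line D (IRX1 and IRX3) and line E (IRX2).

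Markers of other cell types differed between the same libraries. The summed level of 25 fibroblast genes was 975, 1078, 1058 and 918 CPM in lines A, C, D and E on MEF and 642, 1552, 2178 and 785 CPM in feeder-free conditions, with COL1A1 the gene with the highest CPM (353 ± 41.0 and 507 ± 404). DPT was at 0 on MEF, and FAP and TWIST2 were at 0 in feeder-free conditions. With line as a block COL3A1, POSTN and ACTA2 were called higher and COL1A2 and PRRX1 lower, of 22 tested (22.7% beside 10% of all genes). FBLN1 and FN1, which encode matrix proteins, were not called (160 ± 25.1 and 149 ± 34.8 CPM for FBLN1, 177 ± 15.0 and 208 ± 70.5 CPM for FN1, whose span overlaps another locus). Without pairing 0 were called in edgeR's quasi-likelihood test, with 5 (22.7%) at an unadjusted p under 0.05 beside 21.6% of all genes, and by DESeq2 5, the likelihood ratio test 4 and limma-voom 0. The summed level of 12 trophoblast genes was 690, 956, 1238 and 918 CPM on MEF and 756, 2319, 3032 and 1311 CPM in feeder-free conditions, most of it KRT8 (716 ± 155 and 1317 ± 676), a keratin of simple epithelia. The defining trophoblast genes CDX2, IFNT2 and PAG2 were at 0 in all 8 libraries, and ELF5 was at 0 on MEF. KRT8, KRT18, TEAD4 and PTGS2 were called higher and GATA2 lower of 7 tested with line as a block (71.4% beside 10% of all genes), and 5 were at an unadjusted p under 0.05 in the unpaired test (71.4% beside 21.6%). The 14 mesoderm genes summed to 12.6 to 19.0 CPM on MEF and to 20.1 to 30.9 CPM without feeders, with KDR and EOMES called higher in the paired test, of 5 tested (40% beside 10%), and FOXC1 not called (6.93 ± 0.377 and 5.97 ± 1.87 CPM). Of 12 endoderm genes 6 were tested, and APOA1 alone was called higher in the paired test (63.8 ± 23.3 to 185 ± 45.1 CPM), and the endoderm factors FOXA2 (7.38 ± 4.60 and 3.87 ± 0.990 CPM) and FOXA3 (15.9 ± 2.15 and 17.7 ± 3.50 CPM) were not called. APOA1 made 16.7% of the 6 beside 10% of all genes called. At an unadjusted p under 0.05 in the unpaired test there were 2 mesoderm genes (40%) and 1 endoderm gene (16.7%), beside 21.6%. Without pairing, edgeR's quasi-likelihood test called 1 gene of each of these lists, PTGS2 of the trophoblast list (14.3%), KDR of the mesoderm list (20%) and APOA1 of the endoderm list (16.7%), all higher, beside 1.73% of all genes. DESeq2 called 4 trophoblast genes (3 higher, 1 lower), 1 mesoderm gene and 1 endoderm gene, and the likelihood ratio test and limma-voom each called 1 gene of each list. Lines C and D without feeders were highest in the fibroblast and trophoblast sums and in LHX2, DSC3, HEYL and CHRD, and line A without feeders was lowest in the fibroblast and trophoblast sums of that condition and in KRT17 and SFN. Neither the presence of other cell types nor their part in these results was tested.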

How the data were processed

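RNA was sequenced (paired-end, 150-base reads) from 8 bESC libraries, 4 lines on MEF and the same 4 in feeder-free conditions. The authors trimmed reads with Trimmomatic, aligned them to ARS-UCD2.0 with STAR, removed optical duplicates with Picard and low-quality alignments with samtools, and counted them per gene with featureCounts (Subread 1.6.2 per the submitters' processing notes). The deposited values are raw counts per gene, without normalization. The methods also describe freeing counts of cells on MEF from reads seen in a pure MEF library. Whether the deposited counts hold that step is not stated, and no step like it was added here. The methods name RNeasy kits and the records Trizol.

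Of 32640 genes, 3 had no values, 0 columns were left unused, and 30268 symbols matched RefSeq (ARS-UCD2.0), from which coordinates came. Genes passing filterByExpr (15744) were tested with edgeR 4.0.16 (R 4.3.3, glmQLFit and glmQLFTest, TMM) on condition alone, and with line as a replicate block, since each line was grown in both conditions. As a check of this pairing, deviations from the condition means correlated between the libraries of the same line (r = 0.582 in A, 0.557 in C, 0.664 in D, 0.421 in E) and ranged from -0.523 to 0.249 between lines. Calls needed a fold change of 1.5 or more and an adjusted p under 0.05. A prior count of 2 was used for log2 CPM. The mean total per library was compared with an exact permutation test, as was the CPM of each marker. As alternatives, DESeq2's kind of size factors (RLE), unscaled libraries, other count filters, the likelihood ratio test, DESeq2 1.42.0, limma-voom (limma 3.58.1), other fold thresholds and each library left out were tried, and, added after seeing the data, the block with each line left out. Each fit was first tested on simulated data.

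The markers and lists were chosen with earlier results of these data known. Of the lists, all genes called in either test and the 3 with the highest mean CPM were named, and for each tested marker the 2 most correlated genes. Other genes were named after their values were seen only where they were listed at 0, neighbour or overlap a marker, or hold a defining role. Some genes and details of the culture are not reported here.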

Additional observations from a re-analysis of the deposited data

Results flagged for a closer look

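Of 52 sets of 4 libraries of a condition, 4 contained a value far from the rest, where chance alone gives 2.6 for values without ties. PAX6 in line D on MEF stood at a log2 CPM of -1.45 (16 counts), while the other 3 lines on MEF had no counts and the same value of -4.80. SOX10 in line C on MEF stood at a log2 CPM of 1.28, above the 0.79 to 0.86 of the other lines on MEF. The mean log2 CPM of the other PAX, ZIC and LHX genes was 1.75 in line A without feeders, below the 2.34 to 2.41 of the other feeder-free lines. The total count of line D without feeders was 102351560, whereas lines A, C and E without feeders had 49671478 to 51320214. The causes of these values were not tested.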

How the results depend on the processing

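The main test called 114 genes higher and 158 lower, 1 marker, and 3 related genes higher and 6 lower. Values in this order were 83, 91, 1, 3 and 5 without scaling, 73, 97, 0, 3 and 5 without a filter on low counts, and 199, 213, 1, 6 and 7 with at least 10 counts in every library. They were 448, 389, 3, 11 and 14 by the likelihood ratio test, 695, 517, 4, 12 and 15 by DESeq2, 79, 150, 1, 2 and 5 by limma-voom, and 70, 48, 0, 3 and 4 at a fold change of at least 2. Pairing by line (replicate block) gave 869, 713, 4, 12 and 24. With 1 line left out of the paired test the counts were 376 to 918, 366 to 733, 3 to 4, 6 to 15 and 18 to 20. With 1 library left out of the unpaired test they were 0 to 259, 0 to 231, 0 to 1, 0 to 7 and 0 to 9, and 7 of the 8 libraries ended nearly all calls, the exception being line A without feeders. SOX11 lost its call without a filter (edgeR adjusted p = 0.0517) and at the stricter fold. Leaving out a library or line turned the direction of some genes that were not called in the main test: log2 fold changes ran from -0.98 to 0.30 for SOX1, -0.29 to 0.17 for CDH6, -0.36 to 0.86 for COL1A1, -0.16 to 0.46 for DNMT3B, -0.24 to 0.032 for FBLN1, -5.46 to 1.02 for IRX1, -0.080 to 0.14 for SOX13, -0.020 to 0.14 for TWSG1, -0.19 to 0.47 for VIM and -0.075 to 0.021 for ZIC5, and the PAX6 difference in mean CPM from -0.0572 to 0.0529. SOX13 was also at -0.021 by limma-voom and -0.020 with the block, and ZIC5 at 0.026 without scaling and 0.0065 without a filter. The causes were not tested. SOX1, PAX6 and PAX3 had too few counts to resolve a moderate change.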
